A study of Drosophila melanogaster with 12 samples.

Results

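This comparison asked which transcripts of the early Drosophila embryo were recovered more strongly with the RNA-binding protein BRAT (Brain tumor) and which more strongly with PUM (Pumilio), by setting the enrichment in anti-BRAT RNA co-immunoprecipitations (RIPs) against the enrichment in anti-PUM RIPs. All 12 columns of the series took part. The comparison was made on the 7186 of 17130 rows (transcript features of the array) that held values in all 12 columns, and the other 9944 rows held none. Embryos of the w1118 strain, collected 0 to 3 h after egg-laying, were used for every group, and no mutant or treatment was involved. There were 3 anti-BRAT RIPs, 3 anti-PUM RIPs and 3 RIPs with a control Fab, a synthetic antibody fragment directed at neither protein, which makes 9 preparations of RNA. The control preparations were deposited in 2 copies, 1 normalized with the BRAT RIPs and 1 with the PUM RIPs. For each replicate number the log2 ratio of the BRAT RIP to its control copy (the BRAT ratio) and of the PUM RIP to its control copy (the PUM ratio) were taken, and the PUM ratio was subtracted from the BRAT ratio. A positive difference means stronger recovery relative to the control with BRAT, and a negative difference means the same with PUM. Neither requires a RIP signal above the control.

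BRAT belongs to the TRIM-NHL family, whose NHL domain contacts RNA, and PUM to the PUF family, whose repeats read short sequences in the 3′ untranslated regions of mRNAs. Both proteins are maternally supplied, both repress their target mRNAs, and both act with Nanos on the maternal hunchback mRNA in the posterior of the embryo. A RIP recovers RNA that is attached to a protein directly or through other molecules, so an enrichment does not by itself identify a binding site. The deposited table does not pair features with genes. RefSeq synonyms gave a gene name for 37 of the 7186 features, 13 of them with 1 gene and 24 with several, and the remaining features are given by their transcript IDs.

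A large part of the transcripts tested was recovered unequally by BRAT and PUM, and the sides had different make-ups. In limma's moderated test on the 3 paired differences, 1236 features (17.2% of those tested) were higher with BRAT and 1593 (22.2%) were higher with PUM, where a call required 1.5-fold or more and a Benjamini-Hochberg adjusted p below 0.05. Calls in either direction were 39.4% of the features. The preferences for BRAT were the larger ones, with a median difference of 1.18 on the log2 scale (2.26-fold) and quartiles of 0.84 and 1.78. The preferences for PUM had a median of -0.85 (1.80-fold) and quartiles of -1.09 and -0.70. At least 4-fold differences were found for 232 features on the BRAT side and for 39 on the PUM side, and at least 8-fold differences for 46 and 8.

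Which side held more calls depended on the zero point and on the strictness of the test. Over the whole table the difference had a median of -0.18, and features higher with BRAT made up 43.7% of the calls. After each replicate's differences were centred on their median, which moved the overall median to -0.02, that share was 60.0%. It was 56.0% after cyclic loess across all columns. The RIPs had been normalized in separate sets, with column medians of 11.59 to 11.61 for BRAT RIPs and 11.83 to 11.86 for PUM RIPs. When the RIPs were compared without the control, that share was 28.4%. After centring of that comparison, a setting chosen after seeing the data, it was 59.3%. With the zero point left as deposited, it was 59.7% at a 2-fold threshold, 68.8% when limma's treat tested against 1.5-fold and 60.1% without the replicate block. Among differences of 4 to 8-fold and of at least 8-fold the BRAT side held more features also after centring of each RIP's ratios, with 230 and 56 against 21 and 4.

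The 3 paired differences had a common sign in 4798 (66.8%) of all features. Across features, the differences correlated at r of 0.813 between replicates 1 and 2, 0.771 between 1 and 3 and 0.802 between 2 and 3, where features are not independent replicates. The 3 BRAT ratios lay wholly above the 3 PUM ratios for 1111 (89.9%) of the features called higher with BRAT, against 18.8% of all features. They lay wholly below for 1311 (82.3%) of those called higher with PUM, against 25.2% of all features, where the calls rest on the same values. The median standard error of a difference was 0.20.

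**Figure D1:**
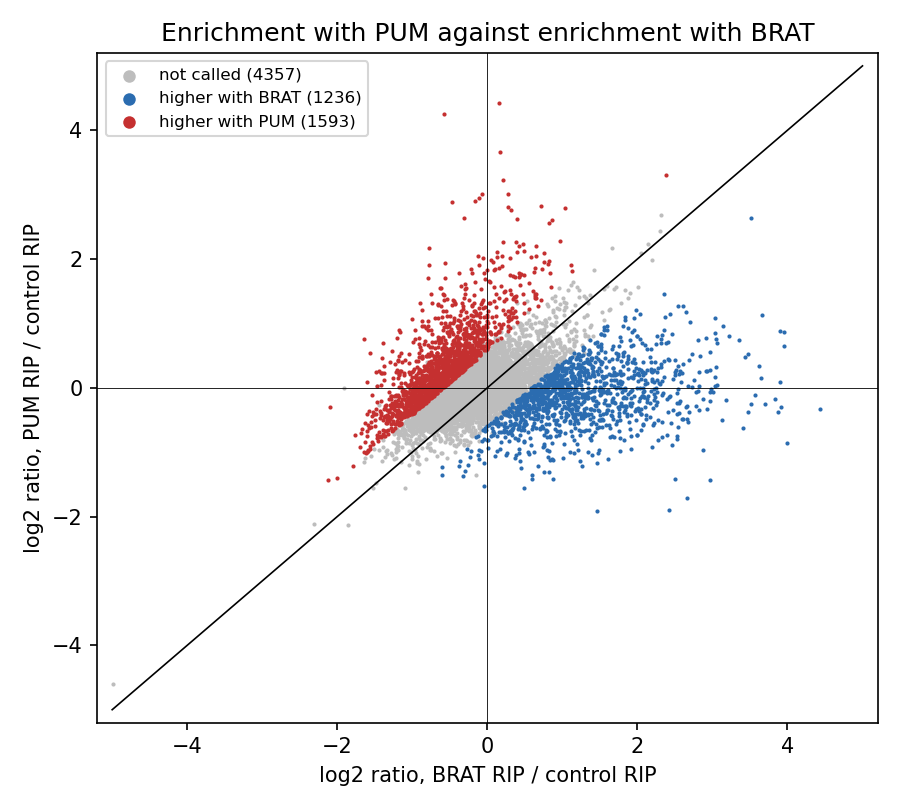
The PUM ratio (log2, vertical axis) is plotted against the BRAT ratio (log2, horizontal axis) for the 7186 features, each point the mean of 3 replicates, with a diagonal where the ratios are equal. The 1236 features higher with BRAT (blue) spread to the right along a PUM ratio near 0, and the 1593 higher with PUM (red) lie mostly to the left of a BRAT ratio of 0, with a smaller group reaching upward.

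The strongest preferences for BRAT combined a high signal in the BRAT RIP with a PUM RIP at or below the control. For FBtr0074464, the log2 signals of replicates 1, 2 and 3 were 14.58, 14.19 and 14.25 in the BRAT RIPs, and 10.52, 10.00 and 10.51 in their controls. In the PUM RIPs they were 9.72, 9.51 and 9.13, against 10.50, 10.01 and 10.40 in the controls of that set. The BRAT RIPs were thus high in every replicate with no overlap, and the PUM RIPs were each below their own control. The difference was 4.85 (SE 0.19, 28.8-fold, limma adjusted p = 1.35e-06), made of a BRAT ratio of 4.00 and a PUM ratio of -0.85, which was itself called lower (limma adjusted p = 0.0377).

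FBtr0078699 followed with a difference of 4.77 (SE 0.19, 27.2-fold, limma adjusted p = 1.35e-06). Its BRAT RIP signals were 14.17, 13.66 and 13.81 against 9.69, 9.45 and 9.21 in the controls, and its PUM RIP signals were 9.22, 8.92 and 9.03 against 9.67, 9.22 and 9.29. Here the PUM ratio of -0.33 was not called (limma adjusted p = 0.229), and the preference lay in the BRAT RIP. Among the 12 features with the largest preferences for BRAT, from 3.85 to 4.85, every BRAT ratio was called higher. Every PUM ratio there was below 0, and 4 were called lower, against 3.58% of all features. The 12 were chosen by the difference, which itself favours negative PUM ratios. Chosen by a called gain of at least 4-fold with BRAT instead, 100 of 213 features had a PUM ratio below 0. Of these 213, 6 had a called loss with PUM, and the median PUM ratio was 0.07.

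The strongest preferences for PUM showed a large gain in the PUM RIP and a BRAT RIP near the control. FBtr0085906 had log2 signals of 12.84, 13.73 and 14.10 in the PUM RIPs against 8.83, 9.61 and 9.47 in their controls. In the BRAT RIPs it had 8.23, 7.80 and 8.76 against 8.41, 9.14 and 9.00. Its difference was -4.84 (SE 0.25, 28.6-fold, limma adjusted p = 2.86e-06), and the BRAT ratio of -0.58 was not called (limma adjusted p = 0.0844), although replicate 2 stood lower than replicates 1 and 3. For FBtr0081990 the PUM RIPs gave 14.68, 14.35 and 14.61 against 10.70, 9.60 and 10.08, and the BRAT RIPs 9.97, 9.35 and 9.31 against 9.70, 8.81 and 9.67. The PUM RIPs did not overlap any other group, whereas the BRAT RIPs overlapped their controls. Its difference was -4.27 (SE 0.24, 19.3-fold, limma adjusted p = 5.3e-06), with a PUM ratio of 4.42 and a BRAT ratio of 0.15. The 12 largest preferences for PUM ran from -2.69 to -4.84, all with a PUM ratio called higher. Their BRAT ratios were -0.78 to 0.27, with 8 below 0 and 1 called lower. These 12 were also chosen by the difference, which favours low BRAT ratios. Chosen by a called gain of at least 4-fold with PUM instead, 9 of 41 features had a BRAT ratio below 0. The median BRAT ratio of these 41 was 0.39.

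**Figure D2:**
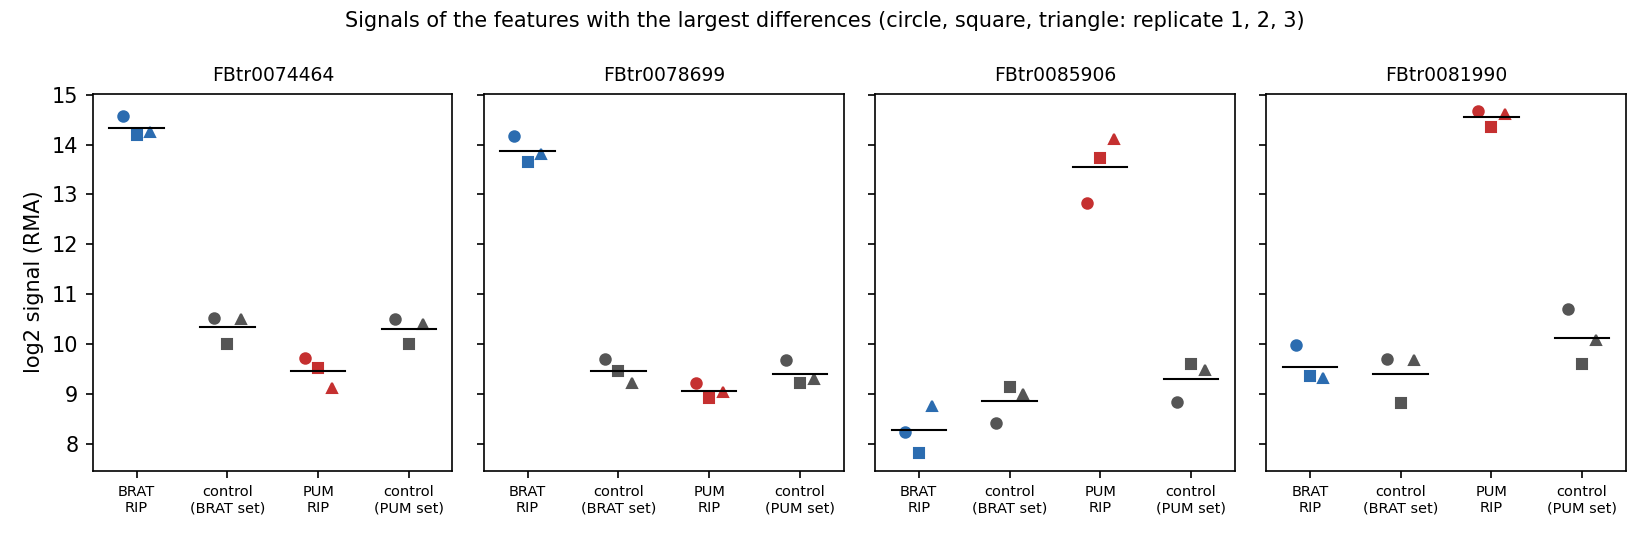
Log2 signals (vertical axis) in the 4 groups are shown for the features with the largest differences, with circle, square and triangle for replicates 1, 2 and 3 and a line at the mean. FBtr0074464 and FBtr0078699 are above 13.6 in the BRAT RIPs alone, and FBtr0085906 and FBtr0081990 are above 12.8 in the PUM RIPs alone.

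Differences in favour of BRAT were mostly gains in the BRAT RIP. Of the 1236 features, 934 (75.6%) combined a call for gain with BRAT and no call in the PUM RIP, with a median BRAT ratio of 1.26 and a median PUM ratio of -0.04. Another 45 features (3.64%) were gained with BRAT and lost with PUM, and 50 (4.05%) were only lost with PUM. For comparison, 19.1% of all features had a call for gain in the BRAT RIP and 3.58% a call for loss in the PUM RIP. Taking the ratios without their calls, the gain with BRAT was the larger part of the difference in 1080 features (87.4%). Since each ratio enters the difference, these shares describe the called features and carry no test.

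Differences in favour of PUM were more often losses from the BRAT RIP than gains in the PUM RIP. The most frequent combination was lower in the BRAT RIP with no call in the PUM RIP, which held 785 of the 1593 features (49.3%) with median ratios of -0.87 for BRAT and -0.02 for PUM. A gain in the PUM RIP with no call in the BRAT RIP accounted for 265 features (16.6%), and both a gain with PUM and a loss with BRAT for 36 (2.26%). Over all features, 21.1% had a call for loss in the BRAT RIP and 6.96% for gain in the PUM RIP. Calls in either direction were made for 40.3% of features in the BRAT RIP and 10.5% in the PUM RIP. By the ratios alone, the loss with BRAT was the larger part in 1040 features (65.3%). When each RIP's ratios were centred on their median the loss was still the larger part, but in 55.4% of the 1077 features then called, against 87.0% with the gain as the larger part on the BRAT side. Features higher with PUM were not always above the control in the PUM RIP. Both ratios were at or below 0 in 439 of the 1593 features, and in 230 of the 1077 after centring. On the BRAT side this held for 26 of 1236, and for 32 of 1482 after centring.

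A sizeable group had no call in either RIP alone and passed only as a difference. It held 171 features (13.8%) on the BRAT side, with median BRAT and PUM ratios of 0.43 and -0.40, and 456 (28.6%) on the PUM side, with -0.41 and 0.40. The ratios had opposite signs in 163 and 441 of these, which the choice of features past 1.5-fold in the difference and uncalled in each RIP largely fixes.

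Gains in the PUM RIP became more frequent as the preference for PUM grew. Among features higher with PUM by 1.5 to 2-fold (1079 features), 8.06% had a called gain with PUM and 55.3% a called loss with BRAT. Between 2 and 4-fold (475 features) these shares were 42.3% and 49.7%, and between 4 and 8-fold (31 features) they were 93.5% and 48.4%. All 8 features with at least 8-fold were gained with PUM, and none had a called loss with BRAT. After centring of the ratios the shares higher in the PUM RIP were 12.6% of 736 features, 57.3% of 316, 100% of 21 and 100% of 4. The shares lower in the BRAT RIP were then 45.2%, 32.6%, 23.8% and 0%, so that between 2 and 4-fold gain was more frequent than loss, opposite to the values before centring. On the BRAT side a gain in the BRAT RIP was already called in 62.9% of the 474 features in the smallest class, in 91.5% of 530, in 99.5% of 186 and in 97.8% of 46. Loss from the PUM RIP there stayed between 5.06% and 10.9%. The classes were cut from the difference itself, and larger gains are easier to call, so these shares are a description.

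**Figure D3:**
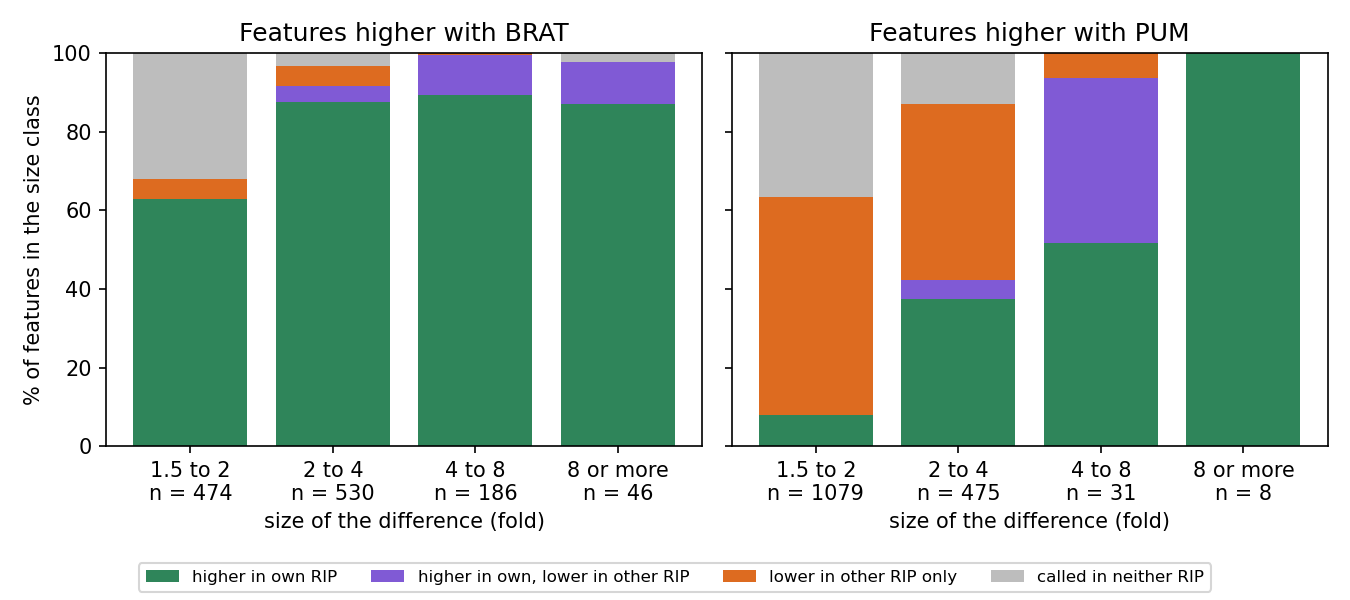
Features higher with BRAT (left) and higher with PUM (right) are divided by the size of the difference in fold (horizontal axis), and each bar gives the % of the class by the calls in the 2 RIPs (vertical axis). Gains in the own RIP fill 62.9% or more of every bar on the left, whereas on the right loss from the BRAT RIP fills 55.3% of the smallest class and none of the largest.

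Loss from the PUM RIP as the source of a preference for BRAT was rare but could be large. FBtr0086714 had the largest difference among the 50 features of this kind. Its PUM RIP signals were 11.42, 12.33 and 12.34 against 13.32, 13.78 and 13.67 in the controls, and its BRAT RIP signals were 13.77, 13.99 and 14.02 against 13.08, 13.70 and 13.52. Every PUM RIP lay below every control. The difference was 2.06 (SE 0.22, limma adjusted p = 8.44e-05), with a PUM ratio of -1.56 and a BRAT ratio of 0.49, which was below the 1.5-fold needed for a call.

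Of the 37 features with a gene name, 6 (16.2%) were higher with BRAT and 8 (21.6%) higher with PUM, near the 17.2% and 22.2% of all features, and 23 were not called. On the BRAT side the largest was a feature listed under both anox and SLIRP1, the second of which encodes an RNA-binding protein of mitochondria. Its BRAT RIP signals were 14.40, 14.12 and 14.16 against 12.33, 12.34 and 12.44 in the controls. The PUM RIP signals were 12.57, 12.36 and 11.37 against 12.50, 12.51 and 12.61, so that only replicate 3 stood clearly below its control. The difference was 2.29 (SE 0.24, limma adjusted p = 6.75e-05). A feature listed under both CG45089 and ND-MNLL, a subunit gene of respiratory complex I, had nearly the same difference of 2.24 (SE 0.19, limma adjusted p = 2.54e-05). Its BRAT ratios of 2.04, 1.82 and 1.33 were all far above its PUM ratios of -0.33, -0.42 and -0.78.

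Among named features the clearest case with both parts was the feature listed under CG42488 and CG5116. It was called higher with BRAT, with ratios of 0.78, 0.62 and 0.88, and lower with PUM, with ratios of -0.39, -1.04 and -1.19. Its difference was 1.63 (SE 0.22, limma adjusted p = 0.000341). Differences of 0.84 and 0.62 were called for the features listed under CG45088 and CG6191 and under CG42306 and Gint3. Neither passed without the replicate block (limma adjusted p = 0.126 and 0.268). The second was also not called without replicate 1 (0.45, limma adjusted p = 0.173), without replicate 2 (limma adjusted p = 0.072) or when the RIPs were compared without the control (limma adjusted p = 0.101).

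The single named gene higher with BRAT was sle (slender lobes), which encodes a nuclear protein needed for normal brain development. Its BRAT RIP signals were 13.16, 12.97 and 12.53 against 12.65, 12.38 and 11.62, and its PUM RIP signals were 12.77, 12.52 and 11.13 against 12.81, 12.52 and 11.83. The PUM RIPs stood level with the control in replicates 1 and 2 and below it in replicate 3. The difference was 0.92 (SE 0.24, limma adjusted p = 0.0130), with paired values of 0.56, 0.59 and 1.60. Without replicate 3 it was 0.58 and not called (limma adjusted p = 0.0674).

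Named genes on the PUM side showed the different origins of the difference. HDAC3, which encodes a histone deacetylase, was lost from the BRAT RIP. Its BRAT RIP signals were 11.25, 11.32 and 11.68 against 11.87, 12.54 and 12.49, with no overlap, whereas the PUM RIPs at 12.32, 12.62 and 12.83 were level with their controls at 12.39, 12.49 and 12.68. The difference was -0.95 (SE 0.21, limma adjusted p = 0.00593), from a BRAT ratio of -0.88 and a PUM ratio of 0.07. The feature listed under CG42374 and Mettl5, the latter a methyltransferase gene of ribosomal RNA, had the same make-up, with ratios of -0.89 and 0.25 and a difference of -1.14 (SE 0.24, limma adjusted p = 0.00481).

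For alpha-Spec, which encodes the alpha-spectrin of the membrane skeleton, neither RIP was called alone. The BRAT RIP signals were 7.59, 8.20 and 7.83 against 8.59, 8.31 and 7.84 in the controls, and the PUM RIP signals 8.58, 8.92 and 8.90 against 8.29, 8.07 and 8.22. Each PUM RIP was above its control and each BRAT RIP at or below its own. The difference was -0.98 (SE 0.20, limma adjusted p = 0.00400). A difference of -1.06 (SE 0.23, limma adjusted p = 0.00515) with no call in either RIP was also found for the feature listed under Mocs2A and Mocs2B, the genes of the small and large subunits of molybdopterin synthase, but it was not called without the replicate block (limma adjusted p = 0.28). A gain with PUM alone was called for the feature listed under lmgA and lmgB, with PUM ratios of 1.11, 0.83 and 0.83, BRAT ratios of 0.42, 0.01 and 0.46 and a difference of -0.63 (SE 0.19, limma adjusted p = 0.0268). This call did not hold without replicate 1 (limma adjusted p = 0.0896), without replicate 2 (0.153), without the replicate block (0.175), after centring of the differences (0.0861) or after loess (0.0581).

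The gene fend (forked end) was called higher in both RIPs, and more so with PUM. Its PUM RIP signals were 13.30, 12.67 and 12.24 against 11.36, 11.31 and 11.35 in the controls, and its BRAT RIP signals were 11.85, 11.86 and 12.27 against 11.49, 11.10 and 11.49. Both RIPs were above their controls in every replicate. The paired differences were -1.58, -0.60 and -0.11, with a mean of -0.76 (SE 0.27, limma adjusted p = 0.0441). Without replicate 1 the difference was -0.35 and not called (limma adjusted p = 0.30), and it was also not called after centring of the differences, where it was -0.60 (limma adjusted p = 0.0994).

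Without the replicate block, none of sle, HDAC3, alpha-Spec and fend passed the test, with limma adjusted p of 0.338, 0.0669, 0.0619 and 0.178. That fit counted the 2 copies of each control preparation as separate samples, although they hold the same RNA. Spread that cancels in the paired differences therefore stayed in its error. The other 9 genes with a feature of their own were not called. The nearest to a call was His4r, a histone H4 gene transcribed outside the histone gene cluster, with a difference of -0.68 (95% confidence interval -1.25 to -0.11, limma adjusted p = 0.0563). Cross-hybridization with other histone H4 mRNAs was not assessed. Differences of -0.39 for Wdr24 and 0.08 for mio, both genes of GATOR2, a complex that acts on nutrient signalling through TOR, did not pass the test. For kis, which encodes a chromatin remodeller, and rdx, an adaptor for ubiquitin ligases, the differences were -0.25 and -0.23, with intervals that reached beyond 1.5-fold. The 95% intervals of mio, NaPi-III (a phosphate transporter), SuUR (a suppressor of underreplication in polytene chromosomes) and Uba1 (the ubiquitin-activating enzyme) lay within 1.5-fold in either direction, which bounds a difference for these 4 genes.

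**Figure D4:**
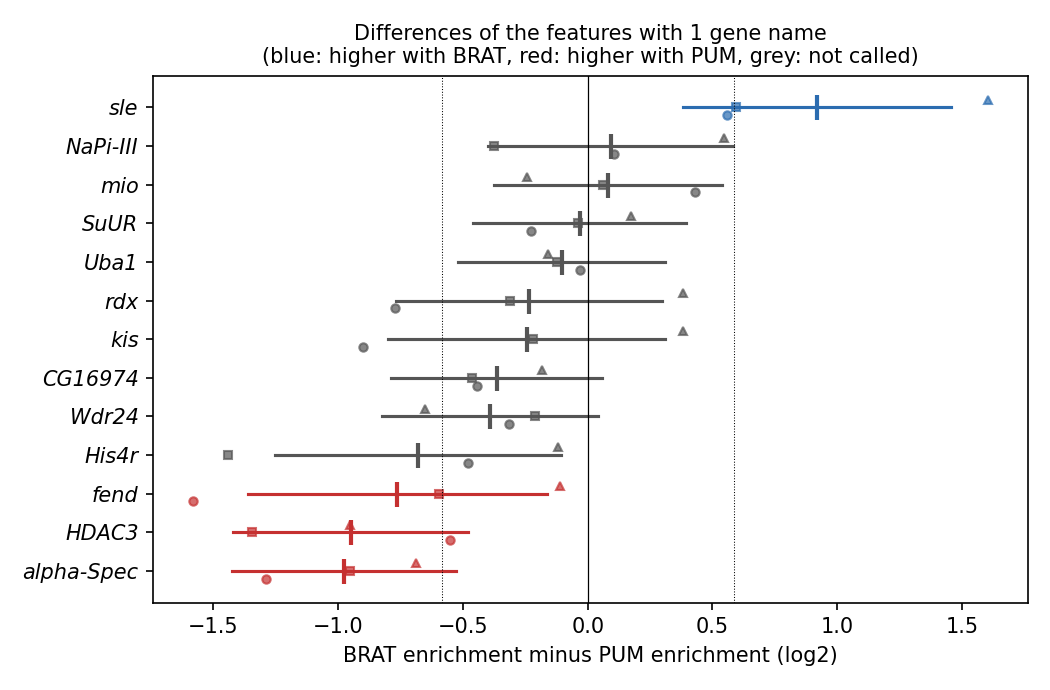
The BRAT ratio minus the PUM ratio (log2, horizontal axis) is given for the 13 features with 1 gene name, with circle, square and triangle for replicates 1, 2 and 3, a vertical tick at the mean, a bar for the limma 95% confidence interval and dotted lines at 1.5-fold. sle lies to the right at 0.92, fend, HDAC3 and alpha-Spec lie to the left at -0.76 to -0.98, and the other 9 are not called.

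Features enriched in both RIPs differed between the RIPs about as often as all features together, but less often than features enriched in 1 RIP only. Of 154 features called higher in both, 37.7% were called for the difference, near the 39.4% of all features. That share was 80.1% for features higher in the BRAT RIP only and 87% for those higher in the PUM RIP only. It was 16.1% for features called in neither RIP, where all these classes rest on the same ratios. Among the 154, the interval of the difference lay within 1.5-fold for 23 (14.9%), and 73 (47.4%) neither passed the test nor excluded a 1.5-fold difference. Of the 58 called, 34 were higher with BRAT with median ratios of 1.97 for BRAT and 0.92 for PUM, and 24 higher with PUM with 0.75 and 1.88. Of these the largest difference was 3.31, for a feature with a BRAT ratio of 3.95 and a PUM ratio of 0.64. The feature listed under CG12016 and Dpm2, a subunit gene of dolichol-phosphate mannose synthase, was nearly as high in both, with BRAT ratios of 1.21, 1.34 and 1.44 and PUM ratios of 1.24, 1.02 and 1.13. Its difference was 0.20 (95% confidence interval -0.23 to 0.63, limma adjusted p = 0.416). Over all features the interval lay within 1.5-fold for 940 (13.1%) and left the question open at this number of replicates for 3417 (47.6%).

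Strong recovery with either protein was usually not matched by a call for the other, although called gains with the other were somewhat more frequent there than over all features. Of the 213 features with a called gain of at least 4-fold with BRAT, 22 (10.3%, against 6.96% of all features) also had a called gain with PUM, 6 had a called loss and 185 had no call, and their median PUM ratio was 0.07. Of the 41 features gained at least 4-fold with PUM, 13 (31.7%, against 19.1% of all features) were also gained with BRAT, none had a called loss, and the median BRAT ratio was 0.39. The shared control enters both ratios, and these shares were not tested.

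When the features were divided by mean signal into 5 groups of equal size, the share higher with PUM was greatest in the brightest group, with 27.3% against 19.6% to 22.3% in the others. Among them, called losses with BRAT went from 109 in the dimmest of these groups to 247 in the brightest, while called gains with PUM numbered 74 in the dimmest and 48 in the brightest. The share higher with BRAT ranged from 14.0% in the dimmest group to 19.2%. The 2 control copies, which hold the same RNA, differed by a median of -0.31 (BRAT set minus PUM set) in the dimmest group and -0.11 in the brightest, and their part in these shares was not tested. Over all features the copies differed by at least 1.5-fold for 188, of which 71 (37.8%) were called, near the 39.4% of all features.

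Agreement between replicates was poor for a few called features. FBtr0111302 was called higher with BRAT at 3.38 (SE 0.96, limma adjusted p = 0.0189), but its paired differences were 6.24, 4.59 and -0.70. Its control signal was 11.64, 11.88 and 7.20 in the BRAT set, and its PUM RIP signal was 5.77, 7.61 and 12.44. Replicate 3 thus ran opposite to the others in both groups, whereas the BRAT RIP signals were 11.80, 12.00 and 11.32. In every group replicate 3 carried Cy5 and the others Cy3, and a part of the dye was not tested. With a trended and robust variance prior the difference was not called (limma adjusted p = 0.302).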

How the data were processed

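The authors hybridized labeled RIP cDNA to custom NimbleGen arrays, quantified the scans in NimbleScan and normalized by RMA quantile normalization in ArrayStar, BRAT RIPs with controls and PUM RIPs with controls separately. The deposited values were taken as log2 signals from their range (4.78 to 15.99 among tested rows), with 1 value per transcript and replicates not pooled. Background and saturation of probes were not assessed. The pairing of samples on arrays was not given in the sources used here. Replicate 3 of every group carried Cy5 and the others Cy3, which cancels a dye effect common to a RIP and its control.

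Each RIP was set against its control copy within its own normalization. The difference of the 2 ratios per replicate number was tested against 0 by lmFit and eBayes in limma 3.58.1 (R 4.3.3), two-sided, with Benjamini-Hochberg adjustment over 7186 features. Each RIP was called in the same way, with the replicate number as a block. Calls needed an adjusted p under 0.05 and 1.5-fold. The labels call the replicates biological. Same-numbered samples deviated together from their group means (r of 0.297 to 0.532 for RIPs with controls and 0.310 to 0.511 for BRAT with PUM RIPs). Since replicate 3 carried Cy5 in every group, a shared dye can enter these correlations. Replicates 1 and 2 both carried Cy3, and a pairing in these alone was not tested. The numbers were treated as pairs. The study's own test was also paired.

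The number of arrays limits the precision. The methods restrict the study's test to transcripts known in embryos of this age, and whether the rows with values are that subset was not tested. Gene names came from synonyms in RefSeq (Release 6 plus ISO1 MT), and 37 features matched. Of 23 gene lists only that of the respiratory chain held a matched feature, ND-MNLL, so no list was described. Features were named by a rule: the 12 largest differences each way with 3 of 3 replicates alike, the 2 largest in each combination of calls, and features with a gene name. From these, mainly features with gene names are given in the text. The comparison, lists and rules were chosen with earlier results of these data known. Alternatives covered centring, loess, quantile normalization, no control, thresholds, variance priors, a signal filter, no block and leaving out each replicate. Figures were drawn in matplotlib 3.10.9 (Python 3.11.15).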

Additional observations from a re-analysis of the deposited data

Results flagged for a closer look

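Every called difference between the BRAT and PUM enrichments was marked for a closer look by the test of the difference itself. The mark therefore repeats the calls and adds no support to them. This applied to the 1236 features higher with BRAT and the 1593 higher with PUM, and among those named to FBtr0074464 at 4.85, FBtr0078699 at 4.77, FBtr0085906 at -4.84 and FBtr0081990 at -4.27 on the log2 scale. Named genes marked in this way were sle at 0.92, fend at -0.76, HDAC3 at -0.95 and alpha-Spec at -0.98. The groups of 3 replicates were too small for a check of single outlying samples. The differences of fend and sle each lost their call when 1 replicate was left out (replicate 1 and replicate 3).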

How the results depend on the processing

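The main comparison called 1236 features in favour of BRAT and 1593 in favour of PUM. Without the replicate block they were 604 and 401, in a fit that counted the 2 copies of each control preparation as separate samples. Spread that cancels in the paired differences stayed in the error of that fit. The counts of calls for the difference also depended on the threshold. They were 762 and 514 at 2-fold, and 581 and 264 when limma's treat tested against 1.5-fold. Comparing the RIPs without the control gave 2540 higher with PUM, and centring the differences gave 1010. Leaving out 1 replicate gave 1098 to 1191 and 1215 to 1509, and no call reversed. On the BRAT side, features lower in the PUM RIP (97) were 41 with the calls in the RIPs at 2-fold, 36 without the replicate block and 5 to 78 with 1 replicate left out (5 without replicate 1, 61 without replicate 3). On the PUM side, features higher in the PUM RIP (325) were 203, 150 and 86 to 271 (86 without replicate 1), and those lower in the BRAT RIP (848) were 273, 563 and 586 to 745, and 441 after centring of the ratios. Features higher in the BRAT RIP on the BRAT side (1013) were 893 to 959 with 1 replicate left out. The cause of these shifts was not tested. Comparing the centred RIPs without the control, an alternative chosen after seeing the data, gave 1574 and 1079. Of the features called in the main comparison, 98.2% and 63.0% were called again there, and 2 were called in the opposite direction. Over 78 features chosen by the naming rule and 14 alternatives, 982 of 1076 pairs kept their call or lack of it, 80 lost a call, 14 gained a call and 0 reversed. The rule took many of these features for their large differences, which favours keeping a call. Of all features called in the main comparison, 48.9% on the BRAT side and 25.2% on the PUM side were called again without the replicate block. With treat these shares were 47% and 16.6%. Choices between several features of a gene were not run, since the files do not pair features with genes.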
